A study of Mus musculus with 8 samples.

Results

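The microbial pattern recognition receptors described here are 10 genes taken by symbol: the Toll-like receptors Tlr1, Tlr2, Tlr4, Tlr5 and Tlr9, the lipopolysaccharide co-receptor Cd14, the cytosolic receptors Nod1, Nod2 and Nlrp6, and the adaptor Myd88. All 10 were found among the 17041 genes of the deposited table, and 9 of them, all but Tlr9, averaged 10 or more across the libraries and entered the test. RNA came from the proximal large intestine of ApoE knockout mice, which lack apolipoprotein E in every group. The mice were bred germ-free, gavaged once with a defined community at 8 weeks of age and dissected at 26 weeks. The core group (3 mice) carried a community that does not make butyrate, and the core plus Roseburia intestinalis group (5 mice) carried the same community with that butyrate-producing, flagellated bacterium added; its mice are called R. intestinalis replicates 1 to 5. The comparison asks what the added bacterium does to the gut wall, here to the genes with which the wall senses bacteria.

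Toll-like receptors bind conserved parts of microbes with an outer domain built of leucine-rich repeats and signal through an inner TIR domain. Tlr2 recognises bacterial lipopeptides together with Tlr1 or Tlr6, Tlr4 recognises lipopolysaccharide with the help of Cd14 and Ly96 (MD-2), Tlr5 recognises flagellin, the protein of bacterial flagella, and Tlr9 recognises unmethylated CpG DNA inside endosomes. Myd88 carries the signal of these receptors to the IRAK kinases and to NF-kB. Nod1 and Nod2 sense fragments of peptidoglycan in the cytosol, and Nlrp6 is a NOD-like receptor of the gut epithelium that can assemble an inflammasome. In the colon these receptors are divided between epithelium, stroma and resident immune cells.

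The sequences that follow are the 250 bases before the RefSeq start of 3 members (build GRCm38.p6), shown because Tlr2 and Tlr5 were high in the same libraries and Nlrp6 in other ones. Capitals mark matches, on either strand, to the GC box GGGCGG, the TATA box TATAAA, the AP-1 motif TGANTCA, the posterior HOX motif CAATAAA or the kappa B consensus.
Tlr2, chr3:83841609-83841858, minus strand: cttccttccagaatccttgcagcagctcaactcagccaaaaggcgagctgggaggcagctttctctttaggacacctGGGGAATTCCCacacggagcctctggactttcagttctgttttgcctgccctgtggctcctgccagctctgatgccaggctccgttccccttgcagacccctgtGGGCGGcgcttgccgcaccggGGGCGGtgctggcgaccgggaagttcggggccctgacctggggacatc
Tlr5, chr1:182954538-182954787, plus strand: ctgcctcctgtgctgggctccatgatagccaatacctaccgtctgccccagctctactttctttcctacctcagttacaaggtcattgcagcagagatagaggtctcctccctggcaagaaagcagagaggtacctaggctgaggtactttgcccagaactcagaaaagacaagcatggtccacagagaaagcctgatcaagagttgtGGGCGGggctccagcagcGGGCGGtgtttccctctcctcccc
Nlrp6, chr7:140920652-140920901, plus strand: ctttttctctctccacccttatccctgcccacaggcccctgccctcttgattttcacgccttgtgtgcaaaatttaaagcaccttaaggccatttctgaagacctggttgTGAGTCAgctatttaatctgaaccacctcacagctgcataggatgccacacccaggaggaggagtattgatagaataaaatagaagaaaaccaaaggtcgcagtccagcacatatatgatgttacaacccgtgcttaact

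Both Tlr2 and Tlr5 held 2 GC boxes close to the start, with first bases at −69 and −48 in Tlr2 and at −42 and −24 in Tlr5. GC boxes were not particular to these genes: Nod2 held 3, and Nod1 and Myd88 held 1 each. Tlr4 and Cd14 had no entry in the promoter table. Tlr2 also held the kappa B consensus as 2 overlapping matches from −173, and Nlrp6 held 1 AP-1 motif at −140. Of 8 members with an entry in the promoter table (10 windows), 5 held a GC box, 2 an AP-1 motif, 1 a TATA box, 1 the kappa B consensus and 0 the posterior HOX motif. Over all 32851 windows of that length, counted per window and not per gene, the shares were 32.7%, 6.7%, 12.4%, 7.3% and 4.2%. A match describes letters only, and nothing about binding was measured.

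Tlr1 shares a stretch of sequence with its neighbour on chromosome 5, Tlr6. In GENCODE M21 (GRCm38) 19.4% of the 50-base windows of the Tlr1 coding sequence (2385 bases) also occur in that of Tlr6. The longest run they share is 229 bases, and its first 120 bases, which lie in the coding sequence, are printed to show reads that fit both genes.
Tlr1 and Tlr6, shown at its Tlr1 position chr5:64925646-64925765, minus strand: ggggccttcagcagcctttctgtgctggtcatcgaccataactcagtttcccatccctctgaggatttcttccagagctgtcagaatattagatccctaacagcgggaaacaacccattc

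Values are the authors' normalized expression signal, with estimated depth from 4607094 to 15349018 reads per library, where 1 estimated read is the smallest step between a library's low values. Differences are R. intestinalis minus core in log2(value + 1), so 0 means equal levels. The 8 genes of the surface epithelium list summed to between 94551 and 190339 in every library, which says that gut epithelium is present but not where along the gut it lay. Position markers differed between libraries that share the label proximal large intestine: Hoxb13, a homeobox gene switched on towards the hind end of the gut, ran from 2.16 to 663, low in core replicate 3 (25.3) and in R. intestinalis replicates 2 (2.16) and 4 (8.26). In these libraries Hoxa13 was lowest and Slc10a2 and B4galnt2 highest, but the markers did not agree everywhere. R. intestinalis replicate 3 had a high Hoxb13 (394), yet its Slc10a2 (414) and B4galnt2 (10571) lay near those of core replicate 3 (510 and 11291). R. intestinalis replicate 1 had a Hoxb13 of 247 and the lowest Hoxd13 (0.67). R. intestinalis replicate 1 stood apart: its 11 macrophage and monocyte markers summed to 1517, against 3111 to 4348 in the other libraries, and its values rose by 0.56 (log2) per 10% of transcript GC content, where the other 7 libraries ran from −0.32 to 0.22. The sample names number the core libraries from 3, and any earlier one is not analysed here. Nothing in the labels gives cage, isolator, sex or diet. A p-value here sets the group difference against the spread among these mice only. If the groups also differed in housing, that cannot be told apart from the community.

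Nlrp6, Tlr1 and Cd14 were the most abundant members per kilobase of transcript, and Tlr9 was barely read. On this scale Nlrp6 had a median of 215 over the 8 libraries (135 to 396), Tlr1 of 200 (163 to 289) and Cd14 of 163 (128 to 219). These 3 ranges overlap, as does that of Myd88 (median 119, 93.1 to 136) with Nlrp6 and Cd14. Tlr2 (median 57.2, 31.0 to 110), which also overlapped Myd88, and Tlr4 (47.6, 36.0 to 69.5) came next and overlapped each other. A gap separated them from Nod1 (12.2, 9.74 to 21.2) and Tlr5 (9.60, 5.36 to 15.9), and Nod2 (3.63, 2.71 to 5.69) reached only the lowest Tlr5 values. Tlr9 (0.539, 0 to 1.47) lay below all other members in every library. Lengths are those of the longest GENCODE M21 coding transcript, which the authors' annotation may not share.

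**Figure D1:**
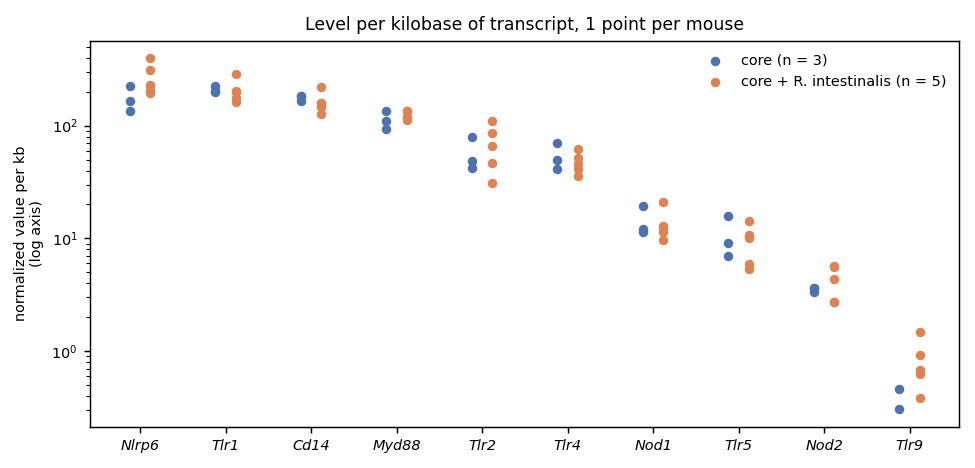
Normalized value per kilobase of transcript (log axis) of the 10 genes in each mouse, ordered by median, 3 mice with the core community and 5 with R. intestinalis added. Nlrp6, Tlr1 and Cd14 overlap at the top (medians 215, 200 and 163) and Tlr9 lies lowest; the core library in which Tlr9 is listed at 0 is not drawn.

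No member was called between the communities. With limma, 0 of the 9 members tested had an adjusted p below 0.05, as had 0 of 13020 genes (0%). At an unadjusted p below 0.05 there was 1 member, Nlrp6, against 8.13% of all genes (1 higher with R. intestinalis, against 4.44%, and 0 lower, against 3.69%), and the libraries of the groups overlapped in all 9 (0 apart, against 5.84% of all genes). Of the 9, 4 had a difference above 0 and 5 below, with a median log2 difference of −0.05 (−0.003 over all genes). In bulk tissue, fewer cells of a type and less RNA per cell cannot be told apart in any of these values. The authors' deposited table gives the 10 members posterior probabilities of differential expression between 0 and 0.01, so 0 of them reached 0.95 (0.481% of all genes did) or 0.90 (0.616%).

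**Figure D2:**
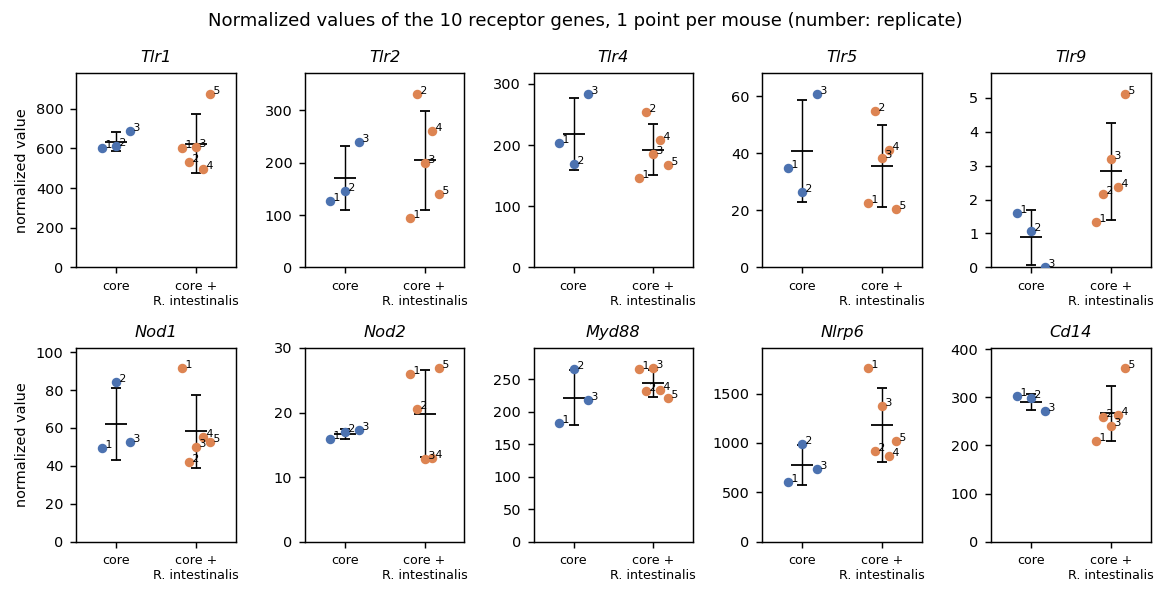
Normalized value of each of the 10 genes per mouse (points, numbered by replicate) and, as bars, each group's mean and SD, in 3 mice with the core community and 5 with R. intestinalis added. Nlrp6 averages 775 against 1185, and in every panel the groups overlap.

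Among the receptors of the cell surface, Tlr2 had normalized values of 127, 146 and 240 in the core libraries and of 93.5, 331, 199, 260 and 141 in the R. intestinalis group, replicates 1 to 5. Both the lowest and the highest library belonged to the R. intestinalis group, and the spread over all libraries was 3.54-fold. The difference in log2 was 0.18 (SE 0.38, 95% interval −0.66 to 1.02, limma adjusted p = 0.855), and it was −0.005 without core replicate 1 and −0.03 without R. intestinalis replicate 2.

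Tlr1, the partner of Tlr2 for triacylated lipopeptides, had values of 604, 611 and 687 in core and of 604, 533, 608, 494 and 874 with R. intestinalis. Apart from the 874 of replicate 5, its libraries lay within a narrow band (log2 difference −0.05, SE 0.18, 95% interval −0.45 to 0.35, limma adjusted p = 0.914). Tlr6, the partner for diacylated lipopeptides, was listed at 13.7 to 16.2 in core and at 6.91 to 13.9 with R. intestinalis. The ratio of Tlr1 to Tlr6 thus ran from 38.4 to 88.1. In 7 of 8 libraries neither gene's value was a whole number of estimated reads (tolerance 0.05 of a read), and both levels are uncertain, since the sources used here do not give how the authors divided reads that fit both genes.

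Tlr4, the lipopolysaccharide receptor, had values of 203, 169 and 284 in core and of 147, 254, 185, 209 and 167 with R. intestinalis. Core replicate 3 was highest and R. intestinalis replicate 1 lowest (log2 difference −0.18, SE 0.22, 95% interval −0.67 to 0.31, limma adjusted p = 0.754). Without core replicate 3 the difference was 0.03, and 0.017 after the GC correction, which takes a smooth curve on transcript GC content off each library and was chosen after the data were seen. Its co-receptor Cd14 had values of 303, 298 and 272 in core and of 210, 259, 240, 263 and 360 with R. intestinalis. All but 1 of the R. intestinalis libraries lay below the lowest core library, the exception being replicate 5, which was the highest of all 8. The difference was −0.15 (SE 0.18, 95% interval −0.54 to 0.24, limma adjusted p = 0.739). Leaving out replicate 5, the only R. intestinalis library to overlap core, had to part the groups. The difference was then −0.26 (limma adjusted p = 0.742). The macrophage and monocyte list, cells that carry Cd14, summed to 3111 to 4348 in core and 1517 to 4239 with R. intestinalis, lowest in the same library as Cd14; its part in the Cd14 values was not tested. Of the neutrophil markers 5 of 7 were in the table, with sums of 54.4 to 79.9. Most of that was Cxcr2 (43.8 to 75.9 in the 8 libraries), while S100a8 lay between 0.67 and 3.54 and Mpo at 0 in 7 libraries.

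Tlr5, the flagellin receptor, was low. It had values of 34.9, 26.6 and 60.8 in core and of 22.7, 54.99, 38.4, 41.3 and 20.5 with R. intestinalis, which stand for 16 to 84 estimated reads. Core replicate 3 was the highest and R. intestinalis replicate 5 the lowest (log2 difference −0.20, SE 0.38, 95% interval −1.04 to 0.64, limma adjusted p = 0.838). Without core replicate 3 the difference was 0.12.

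Tlr9, the endosomal DNA receptor, was at the limit of reading. Its values stood for 1, 1 and 0 estimated reads in core and for 2, 2, 7, 2 and 4 with R. intestinalis. Summed over libraries these are 2 and 17 reads, a ratio of 3.36 once scaled to the groups' summed depth (17440067 and 44153033), with an exact 95% interval of 0.797 to 30 that covers counting error only. The authors' deposited table gives a raw fold change of 2.98 and a posterior one of 2.25 for Tlr9, with a posterior probability of 0. R. intestinalis replicate 5, which had the highest normalized Tlr9 value (5.11), also had the highest sum of the 6 B cell markers, 935, where core libraries lay between 123 and 264 and the other R. intestinalis libraries between 97.0 and 456. B cells are known to carry Tlr9, and their part in the value was not tested.

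Of the cytosolic receptors, Nlrp6 came nearest to a difference. Its values were 600.0, 993 and 731 in core and 1755, 914, 1372, 867 and 1016 with R. intestinalis. The means were 775 ± 200 (SD, n = 3) and 1185 ± 375 (n = 5), and core replicate 2 lay above 2 of the R. intestinalis libraries. The log2 difference was 0.59 (SE 0.25, 95% interval 0.04 to 1.14), with an unadjusted p of 0.0379 and a limma adjusted p of 0.588. Core replicate 2 was the only core library to overlap the R. intestinalis group, so leaving it out had to part the groups. The difference was then 0.79 (limma adjusted p = 0.479). The unadjusted p rose above 0.05 without core replicate 1 (difference 0.42, limma unadjusted p = 0.168), core replicate 3 (0.56, 0.0925), R. intestinalis replicate 1 (0.44, 0.0598) or its replicate 3 (0.52, 0.078). Limma's library weights gave 0.87 and an adjusted p of 0.0416. That fit set a weight of 7.98 on R. intestinalis replicate 3 and at most 1.78 on any other library, and without replicate 3 it gave 0.47 and an adjusted p of 0.485. Adjusted p for Nlrp6 ran from 0.0416 to 0.978 over 22 alternatives, and the difference stayed above 0 in all of them.

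The Nlrp6 transcript is 54.3% GC, its highest library is the one with the steepest GC trend (0.56), and after the GC correction its difference was 0.45 (limma unadjusted p = 0.0304, adjusted p = 0.544). The surface epithelium list (8 of 8 markers in the table) summed to 94551 to 168384 in core and 143379 to 190339 with R. intestinalis. Core replicate 2 had the lowest sum and the highest core Nlrp6. R. intestinalis replicates 2 and 4 had the highest sums and the lowest Nlrp6 of their group. Much of the sum's spread was Car1, at 12235 in core replicate 2 and at 109366 and 92121 in R. intestinalis replicates 2 and 4. The other markers did not share this order. In R. intestinalis replicate 2, Epcam, Krt8, Krt19, Krt20 and Slc26a3 were each lowest of the group. Car1 itself fell with Hoxb13 in the fit described below (slope −0.26, limma adjusted p = 0.0335). Within the list Vil1, villin of the brush border, averaged 2701 ± 344 and 3863 ± 1070. Like Nlrp6, it was highest of its group in core replicate 2 (3059) and R. intestinalis replicate 1 (5476). It was lowest in core replicate 1 (2373) and R. intestinalis replicate 4 (2874), again like Nlrp6. Vil1 was picked after the values were seen, and its transcript is 53.2% GC, near that of Nlrp6. Other markers differed: Epcam, Krt8, Krt20 and Car1 were highest of core in replicate 3. With R. intestinalis, Krt8 (37277) and Krt19 (25698) were highest in replicate 4, where Nlrp6 was lowest. Krt20 and Slc26a3 were highest of that group in replicate 5, Car1 in replicate 2, and Epcam and Cdh1 in replicate 1. The 7 fibroblast markers had sums of 8090 to 9260 in core and lower ones, 4796 to 7190, in the R. intestinalis group. Smooth muscle sums overlapped, at 127430 to 175440 in core and 84935 to 149856 with R. intestinalis. R. intestinalis replicate 1, highest in Nlrp6, had the lowest fibroblast sum. It also had the highest smooth muscle sum of its group and the highest Col1a1 (594), a fibroblast marker. The part of any of these in the Nlrp6 values was not tested.

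Nod1, which senses peptidoglycan of mainly Gram-negative bacteria, had values of 49.2, 84.1 and 52.8 in core and of 91.5, 42.1, 49.8, 55.5 and 52.4 with R. intestinalis. Each group held 1 high library, core replicate 2 and R. intestinalis replicate 1, with the other 6 between 42.1 and 55.5 (log2 difference −0.10, SE 0.29, 95% interval −0.73 to 0.53, limma adjusted p = 0.894). The difference was 0.14 without core replicate 2, −0.27 without R. intestinalis replicate 1 and −0.37 after the GC correction (transcript GC 57.1%). Nod2, the sensor of muramyl dipeptide, was low, at 15.9, 17.0 and 17.2 in core and at 26.0, 20.5, 12.8, 13.0 and 26.8 with R. intestinalis, or 10 to 39 estimated reads. The 3 core libraries were close together and the R. intestinalis libraries lay on both sides of them (log2 difference 0.17, SE 0.33, 95% interval −0.56 to 0.90, limma adjusted p = 0.842).

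Myd88, on which most Toll-like receptors depend, was the most even member, with 1.46-fold between its lowest and highest library. Its values were 183, 266 and 218 in core and 266, 232, 267, 234 and 221 with R. intestinalis. The log2 difference was 0.15 (SE 0.16, 95% interval −0.21 to 0.50, limma adjusted p = 0.716). Core replicate 2 was the only core library to overlap the R. intestinalis group here too, so leaving it out had to part the groups. The difference was then 0.29 (limma adjusted p = 0.488), and without core replicate 1 it was 0.014.

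Values of the members were also set against the gut position gene Hoxb13, a reading chosen after the values were seen, and 0 members passed the test on it. Tlr2, Tlr4 and Tlr5 each had their 3 highest values in core replicate 3 and R. intestinalis replicates 2 and 4, the 3 libraries with the lowest Hoxb13, from both communities. Thus 3 of 9 members had their 3 highest values there, against 6.18% of genes tested, and 0 had their 3 lowest there, against 5.61%. These 3 members varied together (Pearson correlations of 0.89 to 0.95, given below), so they are not 3 separate results, here or in the slopes. The GC trend of the 3 low-Hoxb13 libraries was −0.29, −0.32 and 0.01, and its part was not tested. In a limma fit with community and log2 Hoxb13 as terms, the slope was −0.17 log2 units per log2 unit of Hoxb13 for Tlr2 (SE 0.045, adjusted p = 0.0598), −0.09 for Tlr4 (SE 0.028, adjusted p = 0.0915) and −0.16 for Tlr5 (SE 0.049, adjusted p = 0.0868). That is 0 of 9 past the adjusted threshold, against 4.51% of all genes. At an unadjusted p below 0.05, 3 of 9 had a negative slope, against 11.1% of all genes, and 1 a positive one, Nlrp6 (0.08, limma unadjusted p = 0.0495, adjusted p = 0.196). Over both directions 25.4% of all genes had such an unadjusted p. Tlr3, the receptor for double-stranded RNA and not a member, had a slope of −0.08 (limma adjusted p = 0.0642) and was also highest in those 3 libraries. Its slope passed without R. intestinalis replicate 1 (limma adjusted p = 0.0497) or 3 (0.0492), fits in which more of all genes passed, as given below.

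Whether these slopes passed changed with single libraries. Without R. intestinalis replicate 3 the slopes of Tlr2 (−0.20, limma adjusted p = 0.0205) and Tlr5 (−0.20, limma adjusted p = 0.0295) passed, and without its replicate 1 that of Tlr2 did (−0.14, limma adjusted p = 0.0214). Calls rose over all genes in the same fits: 1018 genes passed on Hoxb13 without replicate 3 and 958 without replicate 1. With all libraries 587 of 13019 did. After the GC correction the slope of Tlr4, whose transcript is 39.4% GC, was −0.05 (limma adjusted p = 0.306), while those of Tlr2 and Tlr5 were −0.17 and −0.15. Tlr1 (0.05), Nod1 (0.06), Nod2 (0.04), Myd88 (0.02) and Cd14 (0.02) had slopes with limma adjusted p between 0.249 and 0.755. With Hoxb13 in the fit, the community difference of Nlrp6 was 0.65 (limma unadjusted p = 0.00861, adjusted p = 0.195) and 0 of 9 members passed for the community. Position along the gut was not recorded in the labels beyond the proximal large intestine.

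**Figure D3:**
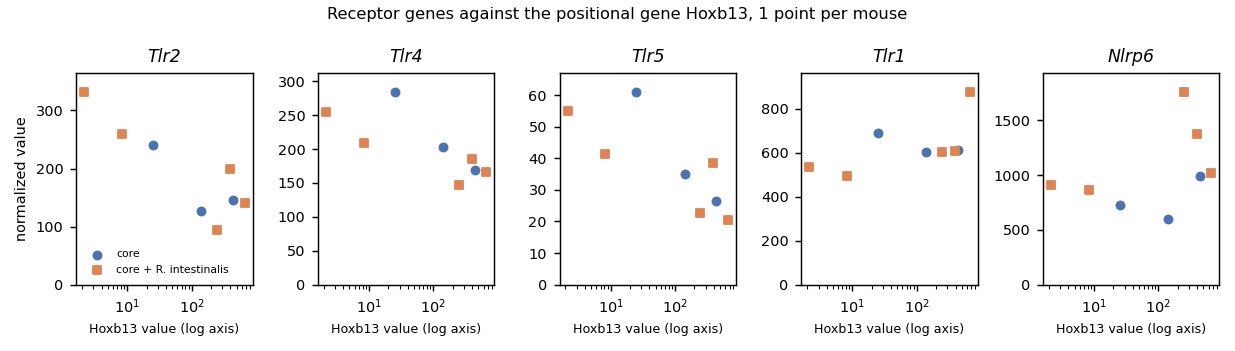
Normalized value of 5 receptor genes against the Hoxb13 value (log axis) in the 8 mice, circles for core and squares for core plus R. intestinalis. Tlr2, Tlr4 and Tlr5 are highest in the 3 mice with Hoxb13 between 2.16 and 25.3, which Tlr1 and Nlrp6 are not.

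Ratios between receptors that act together varied between libraries. The ratio of Tlr1 to Tlr2 ran from 1.61 to 6.46 over the libraries (3.94 ± 0.971 in core, n = 3, and 3.85 ± 2.34 with R. intestinalis, n = 5), and was lowest in the low-Hoxb13 libraries. The ratio of Cd14 to Tlr4 ran from 0.960 to 2.16 (1.40 ± 0.408 and 1.43 ± 0.432 in the same groups). These ratios compare values within a library, not levels per length, and carry no test.

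Around the receptors, lists of the wider pathway were read in the same fit, and 0 of their 83 tested genes (of 104 in the table) passed the adjusted threshold for the community. At an unadjusted p below 0.05, 3 were higher with R. intestinalis (Ticam1, Tab1 and Ikbkb) and 3 lower (Hsp90b1, Nek7 and Saa2), beside 4.44% and 3.69% of all genes. Their median difference was 0.04, and 45 lay above 0 and 38 below, beside 6452 above and 6568 below of all 13020 genes. Counts above and below 0 in the lists carry no test, and genes of a list share the same libraries. Among other receptors and co-receptors, 9 of 25 lay above 0 and 16 below. Cd36, a scavenger receptor also found on fat and endothelial cells, averaged 386 ± 207 and 200.1 ± 130 (log2 difference −1.05, SE 0.50, limma adjusted p = 0.588). The adipocyte list, lower with R. intestinalis by a median of −1.83, summed to 1131 to 2746 in core and 318 to 1490 in the R. intestinalis group; its part in Cd36 was not tested. Naip6 and Naip5, sensors of flagellin that act with Nlrc4, had differences of 0.18 and 0.21 (limma adjusted p = 0.607 and 0.614), and Naip6 was, with Ticam1 and Sigirr, one of 3 higher genes whose groups did not overlap (Hsp90b1, Nek7 and Tnf were the 3 lower ones, and 5.84% of all genes were apart in either direction).

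Of 19 adaptors and kinases tested, 12 lay above 0. Ticam1, the TRIF adaptor of Tlr3 and Tlr4, had values of 119, 188 and 189 in core and of 701, 225, 354, 236 and 286 with R. intestinalis, with groups that did not overlap (log2 difference 1.01, SE 0.35, limma adjusted p = 0.588). Replicate 1 was far above the others, and without it the difference was 0.74 (limma adjusted p = 0.665). After the GC correction it was 0.78 (transcript GC 56.4%). Tab1, a partner of the kinase Map3k7, averaged 130 ± 34.5 and 211 ± 63.4 (log2 difference 0.68, after the GC correction 0.38). Hsp90b1, the chaperone that folds Toll-like receptors, averaged 7070.0 ± 991 and 5187 ± 846 with groups that did not overlap (log2 difference −0.45). Both had a limma adjusted p of 0.588. With limma's library weights Ticam1, Tab1, Hsp90b1 and Ikbkb fell below 0.05 as Nlrp6 did (adjusted p = 0.0416, 0.0443, 0.0485 and 0.0497), as did 3.49% of all genes. Without R. intestinalis replicate 3 the weighted fit left these 4 at adjusted p of 0.441, 0.441, 0.449 and 0.487.

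Of the 8 genes of NF-kB and its activating kinase, 6 lay above 0, with a median of 0.33. Ikbkb, a catalytic kinase subunit, averaged 249 ± 40.9 and 347 ± 66.5 (log2 difference 0.47, SE 0.19, limma adjusted p = 0.588). Relb and Rela had differences of 0.87 and 0.44, which became 0.50 and 0.11 after the GC correction. Among the negative regulators 10 of 12 lay above 0. Nfkbib, Sigirr and Tnip1 had differences of 0.77, 0.34 and 0.86 (limma adjusted p from 0.592 to 0.597), which became 0.44, 0.07 and 0.57 after the GC correction.

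Of 6 inflammasome genes 5 lay below 0. Nek7, a kinase that activates Nlrp3, averaged 794 ± 140 and 590 ± 92.8 with groups that did not overlap (log2 difference −0.43, limma adjusted p = 0.588). Il18, a cytokine that inflammasomes bring to its active form, averaged 230 ± 16.5 and 151 ± 84.3 (log2 difference −0.81, limma adjusted p = 0.590), while Gsdmd, the pore protein, had 0.29. Of 22 cytokine and antimicrobial genes 13 could be tested, 7 above 0 and 6 below. Tnf had values of 20.6, 12.8 and 13.8 in core and of 6.47 to 11.4 with R. intestinalis, and Il6 never passed 1.28. Saa2, an acute-phase protein, had values of 73.3, 80.1 and 24.6 in core and of 15.03 to 49.7 with R. intestinalis. Of the antimicrobial genes, Reg3b lay between 0 and 766 in core and between 6.68 and 1173 with R. intestinalis. Reg3g lay between 4.26 and 231 and between 20.5 and 190.0, and Duox2 averaged 48.4 ± 18.9 and 73.6 ± 27.0 (log2 difference 0.59, limma adjusted p = 0.593).

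**Figure D4:**
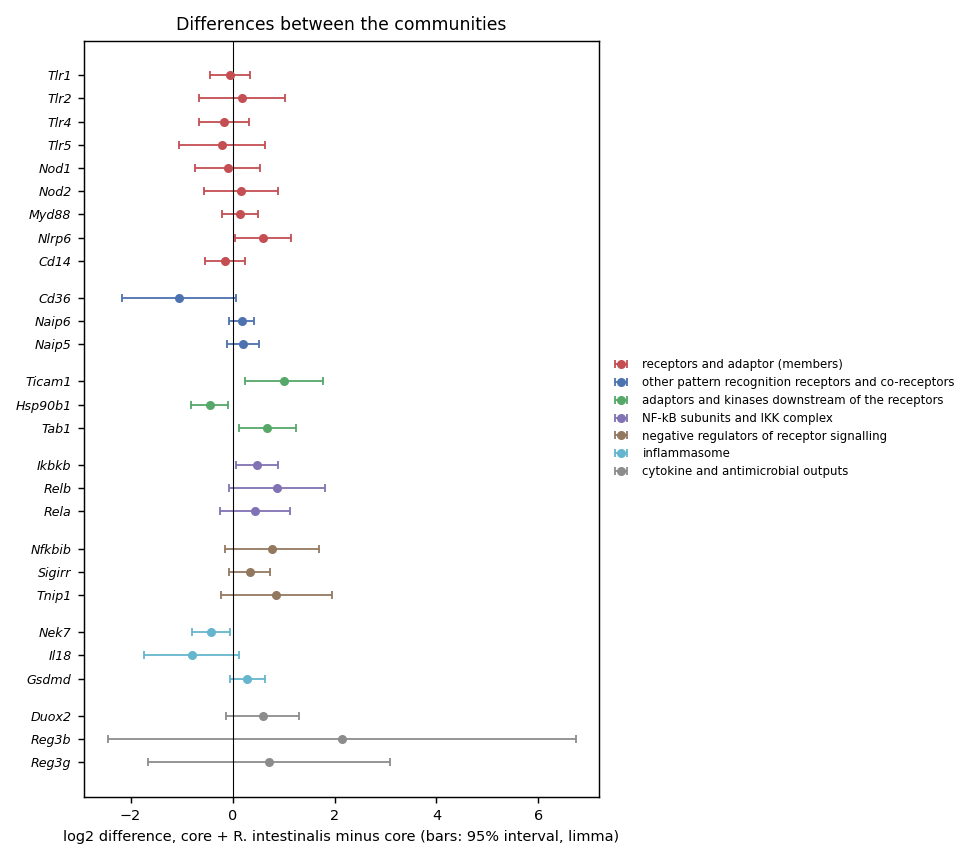
Log2 difference, core plus R. intestinalis minus core (points), with limma's 95% interval (bars), of the 9 members tested and of the 3 genes with the smallest p and a mean of at least 50 in each of 6 pathway lists. Among the members the interval of Nlrp6 (0.04 to 1.14) lies above 0, and 0 genes passed the adjusted threshold.

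Against Hoxb13, 6 of the 83 pathway genes passed, beside 4.51% of all genes. Rising with it were Il18 (slope 0.22, limma adjusted p = 0.00761), Nlrp10 (0.24, limma adjusted p = 0.0077), Tnfaip3, which ends NF-kB signalling (0.16, limma adjusted p = 0.0331), Nfkbib (0.19, limma adjusted p = 0.047) and Irak2 (0.15, limma adjusted p = 0.0481). Saa3, another acute-phase protein, fell with it (−0.45, limma adjusted p = 0.0232). Il18 was lowest in R. intestinalis replicates 2 and 4 (62.5 and 75.5), where Tlr2 was at its 2 highest values. Leaving out 1 library ended the call of Il18 (without R. intestinalis replicate 2, limma adjusted p = 0.104) and of Nlrp10 (without its replicate 5, limma adjusted p = 0.0508). That of Saa3 ended without core replicate 2 or 3 or R. intestinalis replicate 4 or 5 (limma adjusted p from 0.0654 to 0.0934). That of Tnfaip3 ended without any core library or R. intestinalis replicate 4 or 5 (limma adjusted p from 0.062 to 0.127). Those of Nfkbib and Irak2 held least: of 18 alternatives, leaving out any core library or R. intestinalis replicate 2, 4 or 5 among them, 12 ended the call of Nfkbib (limma adjusted p up to 0.372) and 13 that of Irak2 (up to 0.293), by processing choices such as a pseudocount of 5, quantile normalization or the GC correction too. Fitting without the trend ended those of Tnfaip3 (limma adjusted p = 0.086) and Saa3 (0.056) as well, and library weights that of Saa3 (0.0534).

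Genes that varied most like each member were read from deviations from the group means over the 8 libraries, by Pearson correlation, as a description without a p. Tlr2 was closest to Aqp1 (0.993) and Ces1d (0.988), Tlr4 to Ugt1a6a and Nudt7 (0.993 each) and Tlr5 to Nfe2l2 (0.993) and Cks2 (0.990). Nlrp6 was closest to Pik3r4 (0.991) and Pgam1 (0.988), Myd88 to Gemin4 (0.983) and Il17re (0.981) and Nod1 to Unc45a (0.994) and Galnt2 (0.990). Values were lower for Cd14 with Kat2b (0.964) and Dock11 (0.945), Tlr1 with Piga (0.953) and Ugcg (0.951) and Nod2 with Ypel2 (0.936) and Slc22a15 (0.930). Among members, Tlr4 and Tlr5 (0.95), Tlr2 and Tlr4 (0.90) and Tlr2 and Tlr5 (0.89) varied together, as did Nlrp6 with Myd88 (0.83) and Nod1 (0.81). All genes share the same 8 libraries with their depths and GC trends. The genes named beside each member are the best of a search over many genes, and such a search finds high values easily in 8 libraries. How high they would come out for unrelated genes was not tested.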

How the data were processed

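Stranded mRNA libraries (1 per mouse) were made from frozen tissue, per the labels' protocols. Bowtie2, RSEM 1.2.23 and the build mm9 are named, without role or order, per the submitters' processing notes. The sources used here do not give the annotation, the gene filter or the authors' test. Per the file headers and the values, the deposited table holds a normalized expression signal, 1 factor per library, and the authors' comparison as a posterior probability (a score) and 2 fold changes (a linear ratio, core plus R. intestinalis over core). Low values clustered on 1 step per library, taken as 1 read. Between 79.8% and 84.2% of values under 30 lay on it (tolerance 0.05), so whole reads were not assumed; a value of the signal over the step is called estimated reads, and column sums over the step gave the depth.

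Differences are on the scale log2(value + 1), where those of weakly expressed genes come out too small. The 13020 genes averaging 10 or more were tested with limma 3.58.1 in R 4.3.3 with a mean-variance trend and Benjamini-Hochberg adjustment at 0.05, checked on simulated data. Transcript length and GC content came from GENCODE M21, which matched 98.8% of the genes, and promoters from RefSeq.

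The naming rule took the 10 members, and from each pathway list any gene past the threshold (for the community or on Hoxb13) and the 3 genes with the smallest p and a mean of at least 50. Likeness took the 2 best genes under the same minimum, without predicted, Riken, ribosomal protein or antigen receptor genes. The members and lists were chosen with earlier results of these data known. Tlr3, Tlr6, Tnf, Il6, Saa2 and Vil1 were named after their values were seen. Alternatives were pseudocounts of 0.5 and 5, no filter, a mean of at least 50, a trimmed mean of M values, quantile normalization, each library left out, replicate blocks, library weights, no trend, voom and Hoxb13 as a covariate; the GC correction (lowess, span 0.3), the slopes on Hoxb13 and the weights without 1 library were added after seeing the data.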

Additional observations from a re-analysis of the deposited data

Results flagged for a closer look

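In the 5 R. intestinalis libraries, 3 of 28 genes examined had 1 library whose gap to its nearest neighbour was more than 0.71 of the whole range, a limit that chance passes in about 1 of 20 groups. Nod1 in replicate 1 was 91.5, with the next library at 55.5. Ticam1 in the same replicate was 701, with the next at 354. Reg3b in replicate 4 was 1173, with the next at 327.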

How the results depend on the processing

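Counts of genes past the adjusted threshold went from 0 to between 0 and 1 when 1 library was left out and to 455 with library weights. Counts at an unadjusted p below 0.05 went from 1058 to between 269 (without core replicate 1) and 1902 (without R. intestinalis replicate 2), and were 694 without its replicate 3, 3829 with library weights and 2404 with Hoxb13 as a covariate. Members past the adjusted threshold numbered 0 in all alternatives but library weights (1). At an unadjusted p they went from 1 to between 0 and 1 with a library left out, 0 with the sample-name block or without the trend, and 2 with library weights. Members with groups apart went from 0 to between 0 and 2 with a library left out. Ranges of fewer libraries part more easily, and the share of all genes apart with a library left out is not given here. Genes past the threshold on Hoxb13 went from 587 to between 95 and 1018 with a library left out, 269 with library weights and 183 without the trend, and members from 0 to between 0 and 2, with 2 also for library weights without R. intestinalis replicate 3. The cause was not tested.

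Deviations of libraries with the same title replicate number correlated at −0.115, −0.53 and −0.07. Those with the same number in the sample name correlated at −0.011, −0.407 and −0.494. Neither numbering thus showed likeness within pairs, and a pairing by cage or batch was not tested. With the replicate block 395 genes had an unadjusted p below 0.05 and 0 passed. Differences changed sign for Tlr1 (0.017 with the sample-name block, 0.059 with the GC correction), Tlr4 (0.017 with the GC correction) and Nod2 (−0.015 with the sample-name block, −0.19 with library weights). With 1 library left out, the difference ran from −0.18 to 0.022 for Tlr1, −0.03 to 0.45 for Tlr2, −0.34 to 0.027 for Tlr4, −0.46 to 0.12 for Tlr5 and −0.27 to 0.14 for Nod1. It ran from −0.20 to 4.59 for Reg3b and −0.61 to 2.12 for Reg3g. Slopes on Hoxb13 changed sign for Nod1 (−0.001) and Myd88 (−0.008) with the GC correction and for Nod2 (−0.026) with library weights, and ran from −0.02 to 0.031 for Cd14 with a library left out. Low depth limits Tlr9, Nod2 and Tlr5.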
